A study of Mus musculus with 6 samples.

Results

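Wnt antagonists are brakes on Wnt signaling, most of them secreted, and 9 such genes, picked by name, were followed here among the 38293 genes of a heart RNA-seq table: Sfrp1, Sfrp2, Sfrp4, Sfrp5, Frzb, Wif1, Dkk2, Dkk3 and Shisa3. Shisa3 was placed with the others because of its low p for genotype in these same data, so the genotype values of all 9 genes are a description and carry no test. The tissue was heart of adult male mice on a backcrossed C57BL/6J background, operated at 8 to 10 weeks of age and collected 14 days after permanent occlusion of the left anterior descending coronary artery (myocardial infarction, MI). The WT group (3 mice) carried the floxed alleles of Zeb2 without Cre, named Zeb2 fl/fl in the methods. The Zeb2 cKO group (3 mice) carried them with a Cre recombinase driven by the Myh6 promoter, which acts in cardiomyocytes, so all other cells of the heart kept Zeb2. The sample labels place the tissue in the border region of the infarct, whereas the methods place it in the remote zone.

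Wnt proteins are secreted ligands that bind Frizzled receptors with the co-receptors LRP5 and LRP6, which stabilizes beta-catenin and switches on its target genes. Secreted Frizzled-related proteins (the Sfrp genes and Frzb, also called Sfrp3) carry a domain like the ligand-binding part of Frizzled, and Wif1 also binds Wnt proteins outside the cell. Dickkopf proteins such as Dkk2 act on the co-receptors instead, while Dkk3 is the divergent Dickkopf, whose effect on Wnt signaling is less settled. Shisa proteins are membrane proteins that retain Frizzled receptors inside the cell, so that Shisa3 is an antagonist of the pathway but not a secreted one. In the infarcted heart, fibroblasts are a known source of several Sfrp genes.

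Libraries held between 37288174 and 51136331 counts, with 14301225 or more from genes not encoded by mitochondria, and values are given as CPM, counts per 1000000 of the library size normalized by edgeR's TMM method. Zeb2 itself was at 61.3, 116 and 71.9 CPM in WT replicates 1, 2 and 3 against 59.6, 72.6 and 66.5 CPM in Zeb2 cKO replicates 1, 2 and 3. The groups overlapped, so this RNA of all cells of the tissue does not separate the genotypes by the targeted gene. The 7 cardiomyocyte markers (among them Myh6 and Tnnt2) summed to between 9555 and 20290 CPM in WT and between 16101 and 18870 CPM in Zeb2 cKO libraries, and each of them was detected. WT replicate 2 stood apart: it held the lowest cardiomyocyte sum, and its 8 fibroblast markers (among them Col1a1, Pdgfra and Dcn) summed to 8801 CPM against 1503 and 1837 CPM in the other WT libraries and between 1614 and 1955 CPM in Zeb2 cKO. In tissue RNA, more cells of a type and more RNA per cell cannot be told apart. With edgeR's quasi-likelihood test, 0 of 14746 genes (0%) had an adjusted p under 0.05 and 280 (1.9%) had an unadjusted p under 0.05.

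Promoters were available for 6 of the 9 genes in RefSeq (build GRCm38.p6, from 250 bases before to 50 bases after the annotated start). ZEB proteins bind DNA at the letters CACCT, and each of the 6 promoters held this motif on either strand, as did 51.9% of 32851 promoters of all genes. The longer E-box CACCTG, which contains it, was in 2 of the 6 (Sfrp5 and Wif1) and in 20.2% of all promoters. A match of letters is no evidence of binding. Shown here are Shisa3, whose groups were separate, Sfrp2 and Frzb, which were high in WT replicate 2, and Wif1, which followed neither pattern. Each is written 5′ to 3′ on the strand of the gene, and capitals mark CACCT or its reverse complement AGGTG.
Shisa3 (chr5:67607633-67607932, plus strand): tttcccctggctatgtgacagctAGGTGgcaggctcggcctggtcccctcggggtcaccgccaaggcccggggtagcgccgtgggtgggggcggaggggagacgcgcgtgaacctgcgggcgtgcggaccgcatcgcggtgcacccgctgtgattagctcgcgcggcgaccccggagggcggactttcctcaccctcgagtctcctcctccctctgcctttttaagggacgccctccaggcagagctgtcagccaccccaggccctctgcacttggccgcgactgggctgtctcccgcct
Sfrp2 (chr3:83766071-83766370, plus strand): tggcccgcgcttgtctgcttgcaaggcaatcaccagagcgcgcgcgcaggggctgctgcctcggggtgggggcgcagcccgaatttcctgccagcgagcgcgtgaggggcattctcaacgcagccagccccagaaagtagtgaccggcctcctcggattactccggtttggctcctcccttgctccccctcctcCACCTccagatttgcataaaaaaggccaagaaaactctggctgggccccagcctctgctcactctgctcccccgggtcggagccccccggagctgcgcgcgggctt
Frzb (chr2:80447347-80447646, minus strand): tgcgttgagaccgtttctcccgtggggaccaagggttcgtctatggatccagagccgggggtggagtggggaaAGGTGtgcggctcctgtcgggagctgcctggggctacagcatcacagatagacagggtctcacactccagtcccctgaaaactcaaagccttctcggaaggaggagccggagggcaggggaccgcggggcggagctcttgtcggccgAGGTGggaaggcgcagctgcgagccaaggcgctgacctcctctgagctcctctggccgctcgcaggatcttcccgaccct
Wif1 (chr10:121033754-121034053, plus strand): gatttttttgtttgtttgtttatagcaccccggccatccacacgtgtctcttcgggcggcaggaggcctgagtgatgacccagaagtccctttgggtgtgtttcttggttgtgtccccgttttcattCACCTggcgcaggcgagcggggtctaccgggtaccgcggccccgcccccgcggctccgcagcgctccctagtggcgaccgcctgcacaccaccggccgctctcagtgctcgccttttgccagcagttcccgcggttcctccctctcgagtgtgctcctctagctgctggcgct
Counted from the start site to the first base of the match, the motif lay at -227 in Shisa3, at -56 in Sfrp2, at -177 and -30 in Frzb and at -123 in Wif1.

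The 9 genes fell into a group of 4 that were well expressed, a pair at a low level and 3 that were hardly detected. Levels were compared between genes as CPM per kilobase of annotated exon, by their median over the 6 libraries. Sfrp2 had the highest median (5.02 CPM per kb), followed by Sfrp1 (3.90), Dkk3 (3.52) and Frzb (3.43). Sfrp2 was above Sfrp1 in 6 of 6 libraries, although their ranges over libraries overlapped, whereas Dkk3 was above Frzb in 2 of 6, so that these neighbors did not differ beyond their spread. Frzb was above Wif1 in every library with no overlap of their ranges. Wif1 (0.426 CPM per kb) and Shisa3 (0.257 CPM per kb) overlapped, and Wif1 was the higher in 3 of 6 libraries. Sfrp5 (0.0524), Sfrp4 (0.0488) and Dkk2 (0.0290 CPM per kb) had 1 to 19 counts per library and did not pass edgeR's filter on low counts, which 6 of the 9 genes passed.

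**Figure D1:**
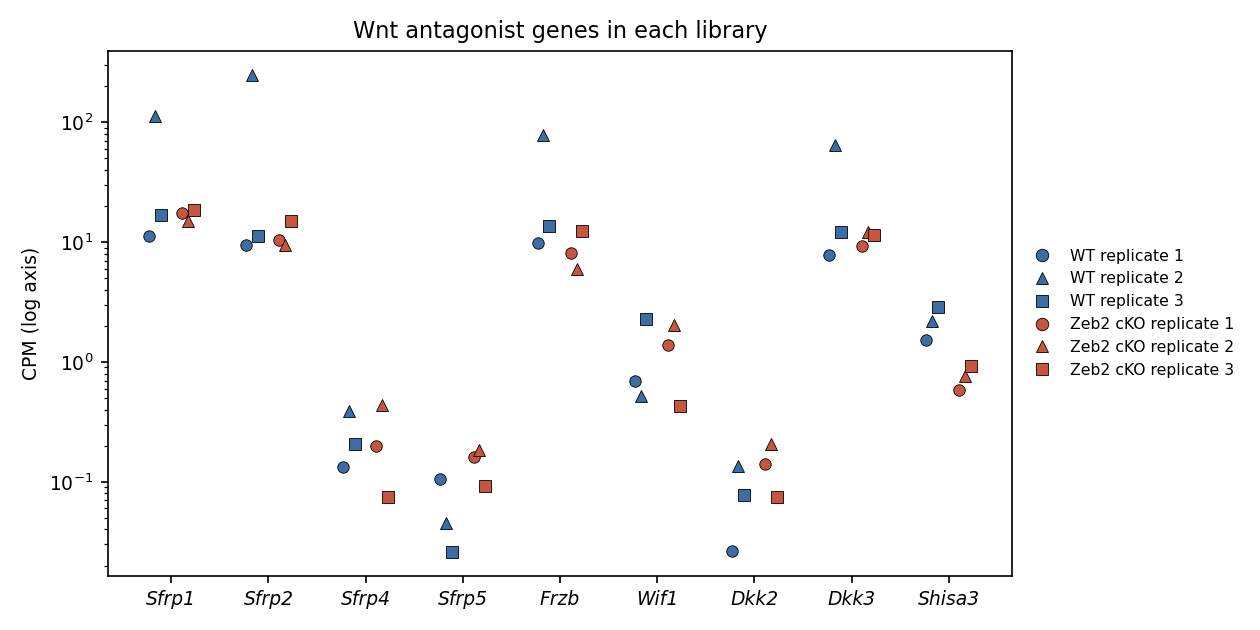
CPM of the 9 genes (log axis) in each of the 6 libraries, with color for genotype and marker shape for replicate number. The triangle of WT replicate 2 lies far above the other libraries for Sfrp1, Sfrp2, Frzb and Dkk3 and not for Wif1 or Shisa3, and Shisa3 is the gene whose WT libraries all lie above its Zeb2 cKO libraries.

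Sfrp2 (ENSMUSG00000027996, chromosome 3 of GRCm38, 83766321 to 83774316, plus strand) was at 9.43, 251 and 11.2 CPM in WT replicates 1, 2 and 3 against 10.4, 9.56 and 14.98 CPM in Zeb2 cKO replicates 1, 2 and 3. WT replicate 2 was thus 24.3 times the mean of the other WT libraries, and the other 5 libraries lay between 9.43 and 14.98 CPM with the genotypes interleaved. The log2 fold change (Zeb2 cKO against WT) was -2.96 (standard error 1.26), and it was 0.18 (standard error 0.20) without WT replicate 2. A stretch of 17.8% of the longest Sfrp2 transcript is shared with Gm26771, an antisense gene with at most 2 counts in any library.

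Sfrp1 (ENSMUSG00000031548, chromosome 8, 23411502 to 23449632, plus strand) was at 11.3, 113 and 16.7 CPM in WT and at 17.4, 15.03 and 18.6 CPM in Zeb2 cKO libraries. Again WT replicate 2 alone was high, and WT replicate 1 was the lowest of the 6. Its log2 fold change of -1.47 (standard error 0.82) was 0.29 (standard error 0.18) without WT replicate 2.

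Frzb (ENSMUSG00000027004, chromosome 2, 80411970 to 80447625, minus strand) was at 9.80, 78.3 and 13.5 CPM in WT and at 8.07, 5.95 and 12.4 CPM in Zeb2 cKO libraries. The groups overlapped by 1 library, since Zeb2 cKO replicate 3 lay between WT replicates 1 and 3. The log2 fold change was -1.94 (standard error 0.80), and -0.40 (standard error 0.29) without WT replicate 2, so that Frzb was the 1 gene of these 4 that kept a value below 0.

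Dkk3 (ENSMUSG00000030772, chromosome 7, 112116017 to 112159057, minus strand) was at 7.89, 64.3 and 12.1 CPM in WT and at 9.37, 12.1 and 11.6 CPM in Zeb2 cKO libraries. Its WT replicate 2 was 6.45 times the mean of the other WT libraries, against 8.08 times for Sfrp1 and 6.71 times for Frzb. The log2 fold change of -1.35 (standard error 0.74) was 0.14 (standard error 0.20) without that library. In all 4 genes, leaving out any library other than WT replicate 2 left the log2 fold change at -1.25 or lower.

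**Figure D2:**
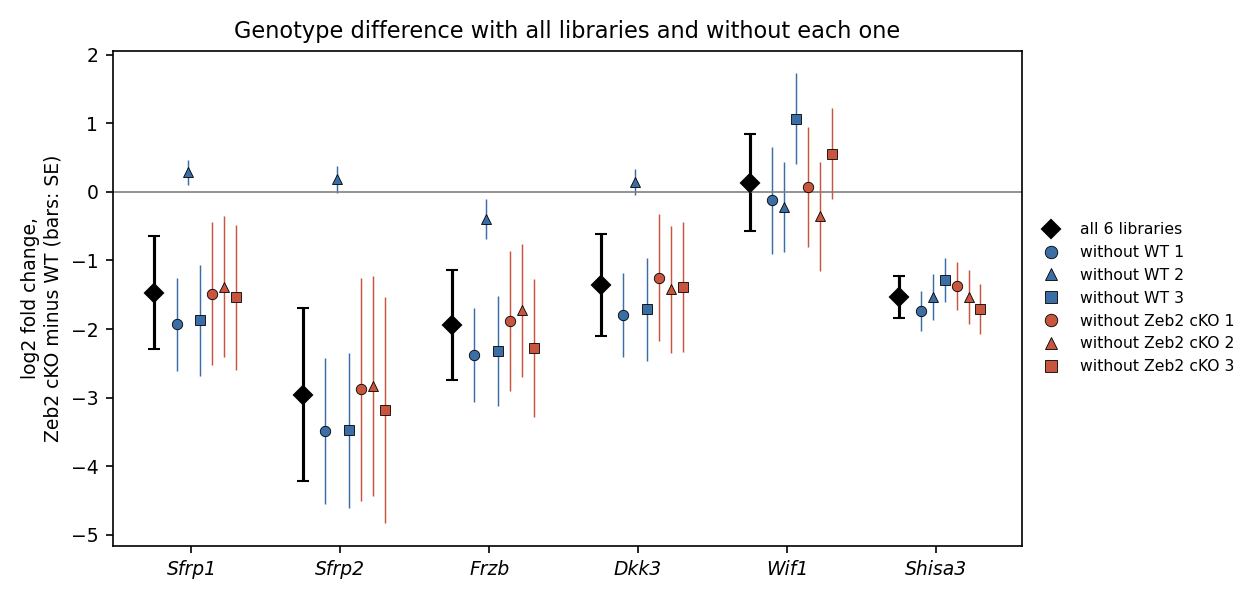
Log2 fold change (Zeb2 cKO minus WT, bars show the standard error) of the 6 genes that passed the filter, with all 6 libraries (black) and without each library in turn. Without WT replicate 2 the values of Sfrp1, Sfrp2 and Dkk3 lie between 0.14 and 0.29 and that of Frzb at -0.40, while Shisa3 stays between -1.74 and -1.29 under every omission.

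Fibroblast markers moved with these 4 genes, and the part of this in the genotype difference was not tested. All 8 fibroblast markers passed the filter, and none was at 0 in a library. Each had a log2 fold change below 0 with overlapping groups, beside 51.4% of all genes tested below 0. Each was also highest in WT replicate 2. Their sums in WT replicates 1 and 3 were 1503 and 1837 CPM, against 1614 to 1955 CPM in Zeb2 cKO libraries. Their direction is therefore not read as a genotype difference. The correlation of log2 CPM with the mean of these markers over the 6 libraries was 0.997 for Sfrp1, 0.996 for Sfrp2, 0.992 for Dkk3 and 0.9504 for Frzb, against 0.417 for Shisa3 and -0.433 for Wif1. These values share WT replicate 2. Over the other 5 libraries they were 0.9499 for Sfrp1, 0.830 for Dkk3, 0.794 for Sfrp2 and 0.330 for Frzb. The 7 macrophage markers also summed highest in WT replicate 2 (736 CPM against 195 to 266 CPM in the other 5 libraries). So did the 6 markers of activated fibroblasts such as Postn (2267 CPM against 341 to 818 CPM). Within these lists Cd163 was lowest in WT replicate 2 (1.62 CPM against 5.83 to 8.34 CPM). Acta2 was not high there (40.2 CPM against 31.1 to 85.4 CPM), and every other marker was highest there. Endothelial markers summed lowest in that library (289 CPM against 374 to 452 CPM), as did smooth muscle and pericyte markers (497 CPM against 608 to 726 CPM). The 6 valve and cartilage-like matrix markers summed to 221 CPM in WT replicate 2 against 12.3 to 26.8 CPM in the other 5 libraries, led by Comp, a matrix protein of cartilage and tendon, at 146 CPM against 5.06 to 14.1 CPM. The part of these lists in the high Sfrp1, Sfrp2, Frzb and Dkk3 of that library was not tested.

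Set against the sum of the 8 fibroblast markers, the excess of WT replicate 2 became smaller in Sfrp1, Sfrp2, Frzb and Dkk3. Its ratio to the mean of the other WT libraries was then 1.55 for Sfrp1, 4.60 for Sfrp2, 1.28 for Frzb and 1.24 for Dkk3. The same sum divides every gene of a library. The step therefore lowers all genes alike in WT replicate 2 and cannot set Sfrp2 apart from the others. Sfrp1 was at 7.51, 12.9 and 9.10 CPM per 1000 CPM of fibroblast markers in WT and at 10.8, 8.89 and 9.53 in Zeb2 cKO libraries. Dkk3 was at 5.25, 7.30 and 6.57 in WT and at 5.81, 7.14 and 5.91 in Zeb2 cKO libraries on this scale, and the genotypes were interleaved for both genes. Sfrp2 remained at 28.5 in WT replicate 2 against 5.66 to 7.66 in the other 5 libraries. The choice of markers mattered here: WT replicate 2 was 1.24 (Dkk3) to 4.60 (Sfrp2) times the mean of the other WT libraries with all 8 markers, and 1.93 (Dkk3) to 7.12 (Sfrp2) times when the 3 collagens were left out.

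Frzb on this scale was at 6.52, 8.90 and 7.37 in WT and at 5.003, 3.52 and 6.35 in Zeb2 cKO libraries, without overlap. Without the collagens Frzb was at 23.3, 45.0 and 21.9 CPM per 1000 CPM in WT and at 11.4, 10.6 and 21.3 in Zeb2 cKO libraries, again without overlap but by a narrow margin in Zeb2 cKO replicate 3. The ratio of Frzb to Sfrp1, both per kb, was 1.17, 0.935 and 1.09 in WT and 0.626, 0.534 and 0.900 in Zeb2 cKO libraries. Over all genes tested, 2.73% had groups without overlap per CPM of the 8 fibroblast markers (0.156% lower in Zeb2 cKO), and 1.41% (0.604% lower) without the collagens. The scale without collagens and the ratio to Sfrp1 were chosen after the values were seen. The members and lists were chosen with earlier results of these data known. The contrast is the one that chose the members, and nothing is read from the separation of Frzb.

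**Figure D3:**
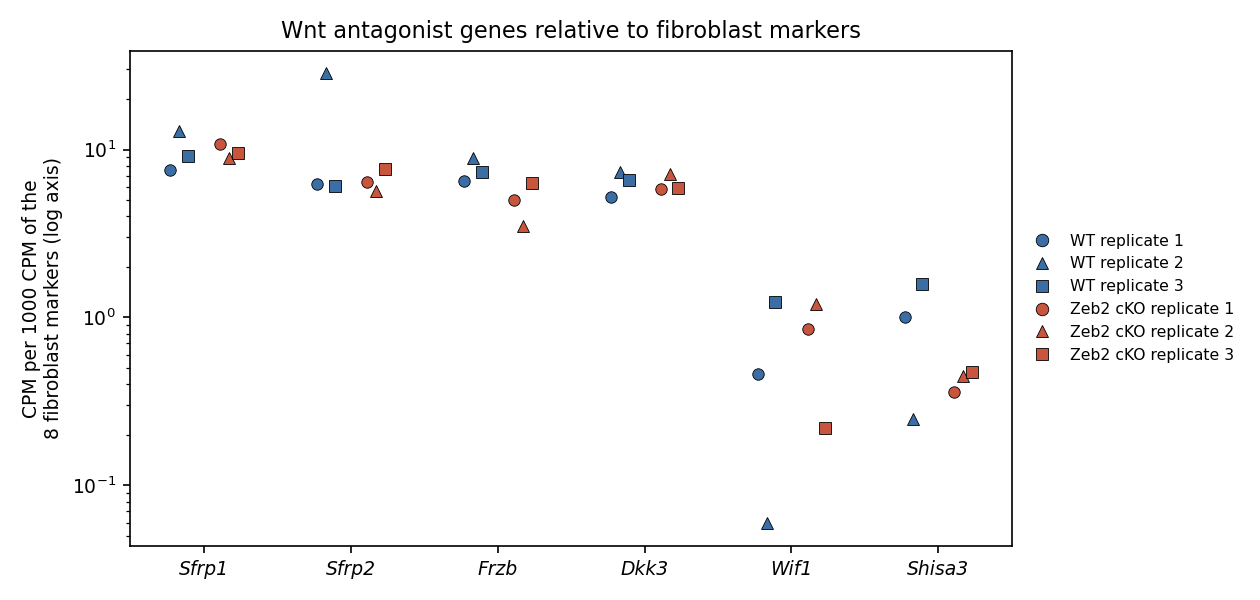
CPM of 6 genes per 1000 CPM of the 8 fibroblast markers (log axis) in each library, with color for genotype and marker shape for replicate number. Sfrp1 and Dkk3 are interleaved between genotypes, Sfrp2 keeps a high WT replicate 2 at 28.5, Frzb is separate, and Shisa3 and Wif1 are low in WT replicate 2, where the fibroblast sum is highest.

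Shisa3 (ENSMUSG00000050010, chromosome 5, 67607882 to 67623552, plus strand) did not share the high WT replicate 2 of Sfrp1, Sfrp2, Frzb and Dkk3, and neither did Wif1. It was at 1.51, 2.19 and 2.89 CPM in WT (57, 96 and 111 counts) and at 0.580, 0.761 and 0.931 CPM in Zeb2 cKO libraries (29, 33 and 50 counts). All WT libraries lay above all Zeb2 cKO libraries. The log2 fold change was -1.53 (standard error 0.31) and ran from -1.74 without WT replicate 1 to -1.29 without WT replicate 3. Counting error alone is sizable at this depth: the exact Poisson 95% interval was 1.15 to 1.96 CPM in the lowest WT library and 0.691 to 1.23 CPM in the highest Zeb2 cKO library, so these intervals touch. Such intervals cover counting error only. Shisa3 shares 138 exon bases with Atp8a1 on the opposite strand, which was between 32.3 and 44.5 CPM in all libraries with overlapping groups. Per 1000 CPM of fibroblast markers the Shisa3 groups overlapped, from 0.249 in WT replicate 2 to 1.57 in WT replicate 3. WT replicate 1 was at 1.01, and Zeb2 cKO libraries were at 0.359 to 0.476. The overlap rests on WT replicate 2, whose value is divided by the highest fibroblast sum. It therefore does not bear on the separation in CPM.

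Wif1 (ENSMUSG00000020218, chromosome 10, 121033960 to 121100650, plus strand) varied within both genotypes. It was at 0.690, 0.524 and 2.27 CPM in WT and at 1.38, 2.03 and 0.428 CPM in Zeb2 cKO libraries. The high libraries were WT replicate 3 and Zeb2 cKO replicates 2 and 1, with lower Poisson bounds of 1.07 CPM or above, while the other 3 had upper bounds of 1.01 CPM or below. The spread within a genotype was thus larger than counting error, and larger than the difference between the means of 1.16 ± 0.961 CPM in WT and 1.28 ± 0.805 CPM in Zeb2 cKO (SD, n = 3 each). Its log2 fold change of 0.14 (standard error 0.71) ran from -0.36 without Zeb2 cKO replicate 2 to 1.07 without WT replicate 3.

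The 3 remaining genes were near the limit of detection. Sfrp4 (chromosome 13, 19623104 to 19632994, plus strand) had 5, 17 and 8 counts in WT and 10, 19 and 4 counts in Zeb2 cKO libraries. Dkk2 (chromosome 3, 132085292 to 132180304, plus strand) had 1, 6 and 3 counts in WT and 7, 9 and 4 counts in Zeb2 cKO libraries. No difference between genotypes was detectable for these genes at this depth. Sfrp5 (chromosome 19, 42197971 to 42202252, minus strand), a gene known from adipose tissue, had 4, 2 and 1 counts in WT (0.106, 0.0456 and 0.0260 CPM) and 8, 8 and 5 counts in Zeb2 cKO libraries (0.160, 0.184 and 0.0931 CPM). The CPM of WT replicate 1 lay above that of Zeb2 cKO replicate 3, so the groups overlapped. Sums of the 6 adipocyte markers, among them Adipoq and Cfd, were 0.342 to 0.911 CPM in WT and 1.02 to 2.96 CPM in Zeb2 cKO. Lep was at 0 counts in every WT library and at 1, 1 and 0 counts in Zeb2 cKO libraries. Of these markers only Cfd passed the filter. Its groups overlapped, at 0.292, 0.205 and 0.651 CPM in WT and at 1.66, 0.576 and 0.540 CPM in Zeb2 cKO libraries. The other markers had at most 25 counts in any library, so nothing is read from the sums. The part of adipocyte markers in the Sfrp5 counts was not tested.

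Of the 9 genes, 1 (Shisa3) had groups that did not overlap, beside 6.36% of all genes tested (2.97% lower and 3.39% higher in Zeb2 cKO). Since this contrast placed Shisa3 among them, nothing is read from that count. The median log2 fold change of the 6 genes that passed the filter was -1.50, with 5 below 0, beside a median of -0.0069 and 51.4% below 0 over all genes tested. Without WT replicate 2 the median was -0.039, with 3 below 0 and 3 above 0.

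Among the 6 genes, the pairwise correlation of log2 CPM over the 6 libraries ran from -0.52 (Frzb with Wif1) to 0.989 (Sfrp1 with Sfrp2). Without WT replicate 2 the correlation of Sfrp1 with Frzb went from 0.940 to 0.236 and that of Frzb with Dkk3 from 0.927 to 0.0757, while Sfrp1 with Sfrp2 remained at 0.710 and Frzb with Shisa3 was at 0.691. These are descriptions over 6 or 5 libraries. The genes whose log2 CPM followed a member most closely over the 6 libraries, among genes with a mean of at least 1 CPM, were Cd180, Zfp37 and Ecm1 for Sfrp1, Mfsd1, Sept5 and Dennd4a for Sfrp2, Sfxn3, Gpr176 and Zbtb6 for Frzb, and Asah1, Ccnc and Wls for Dkk3, with correlations of 0.997 to 0.999 that share WT replicate 2. Wls carries Wnt proteins to the cell surface. For Shisa3 they were Ap2s1, Sytl4 and Lrrc2 (0.963 to 0.980), and for Wif1 Gm14769, Uchl4 and Gm13131 (0.976 to 0.990).

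The rest of the pathway asks whether ligands, receptors or targets differed between genotypes. These genes were not used to choose the members, but their lists were chosen with earlier results of these data known. Of 81 other Wnt pathway genes in 6 lists, 50 passed the filter. With edgeR's quasi-likelihood test 0 of them had an unadjusted p under 0.05, beside 0.861% of all genes tested with lower and 1.04% with higher values in Zeb2 cKO, and the smallest adjusted p was 0.957. DESeq2 also gave 0. The groups did not overlap in 5 of the 50 (10%), beside 6.36% of all genes tested. These were the ligands Wnt9a and Wnt11, the co-receptor Lrp6 and the kinase Gsk3b, which phosphorylates beta-catenin for degradation, each with lower values in Zeb2 cKO, and Znrf3, which removes Frizzled from the surface, with higher values. Their log2 fold changes lay between -0.27 and 0.093. The median over the 50 genes was -0.17, and -0.035 without WT replicate 2.

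Among 14 other antagonists, 6 were tested and 5 of these had a log2 fold change below 0, with a median of -0.46 that was 0.31 without WT replicate 2. Igfbp4, which binds Frizzled and LRP6 besides insulin-like growth factors, was at 27.5, 138 and 29.9 CPM in WT and at 34.3, 32.5 and 36.4 CPM in Zeb2 cKO libraries. It shared the high WT replicate 2 of Sfrp1 and Sfrp2, and its log2 fold change of -0.92 (standard error 0.61) was 0.26 without that library (unadjusted p = 0.0312, adjusted p = 1.00, edgeR). For Sost (sclerostin, which blocks LRP5 and LRP6) the change was -0.67 (standard error 0.71) and for Tpbg -0.63 (standard error 0.67), both on the log2 scale. Without WT replicate 2 they were 0.49 (standard error 0.50) for Sost and 0.51 (standard error 0.43) for Tpbg. Kremen1, a receptor of Dickkopf proteins, was at 79.0 CPM on average and its log2 fold change was 0.0019. Dkk4 and Cer1 were at 0 counts in every library, and Dkk1 had at most 1 count in any library.

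Of 21 genes for ligands and their secretion, 8 were tested. Per kb of exon, Wls was at a mean of 4.41 CPM, and the ligands Wnt9a, Wnt5b and Wnt5a were at 0.941, 0.827 and 0.635 CPM. Wnt2 had the smallest p, with 0.212, 0.615 and 0.625 CPM in WT and 0.140, 0.207 and 0.354 CPM in Zeb2 cKO libraries, with overlapping groups. The change was -1.04 on the log2 scale (standard error 0.53), with an adjusted p of 0.957 in edgeR. Of 16 receptors and co-receptors, 15 were tested, with a median log2 fold change of -0.22 that was -0.040 without WT replicate 2. The smallest p was that of Fzd8, whose log2 fold change was -0.57 (standard error 0.30). Lrp6 was at 57.2, 70.0 and 54.7 CPM in WT and at 49.3, 54.5 and 52.9 CPM in Zeb2 cKO libraries. Of 9 genes for R-spondins, which amplify Wnt signaling, and their receptors, Lgr4, Lgr6 and Znrf3 were tested, with log2 fold changes between -0.044 and 0.093.

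Of 12 intracellular genes, all were tested and the median log2 fold change was -0.036. Ctnnb1, which encodes beta-catenin, was at 240, 226 and 247 CPM in WT and at 230, 249.9 and 241 CPM in Zeb2 cKO libraries, and the change was 0.017 on the log2 scale (standard error 0.13). Of 9 target genes of beta-catenin, 6 were tested. Axin2, a target and negative regulator of the pathway, was at 1.62, 1.34 and 1.30 CPM in WT and at 2.42, 2.28 and 1.53 CPM in Zeb2 cKO libraries. Its groups overlapped in 1 library, and its log2 fold change of 0.54 (standard error 0.24) did not pass the test (unadjusted p = 0.0568, adjusted p = 0.957, edgeR's quasi-likelihood test). Nkd2, another feedback inhibitor, was at 2.97, 17.6 and 4.92 CPM in WT and at 3.12, 2.60 and 5.90 CPM in Zeb2 cKO libraries, with WT replicate 2 again the high library. With all libraries, 4 of the 6 target genes were below 0 and 2 above 0. Without WT replicate 2, Axin2 (0.51), Ccn4 (0.26), Ccnd1 (0.13) and Nkd1 (0.13) were above 0. Nkd2 (-0.017) and Myc (-0.13) were then below 0. The target genes thus did not share a direction in either fit, and the tally depended on that library.

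**Figure D4:**
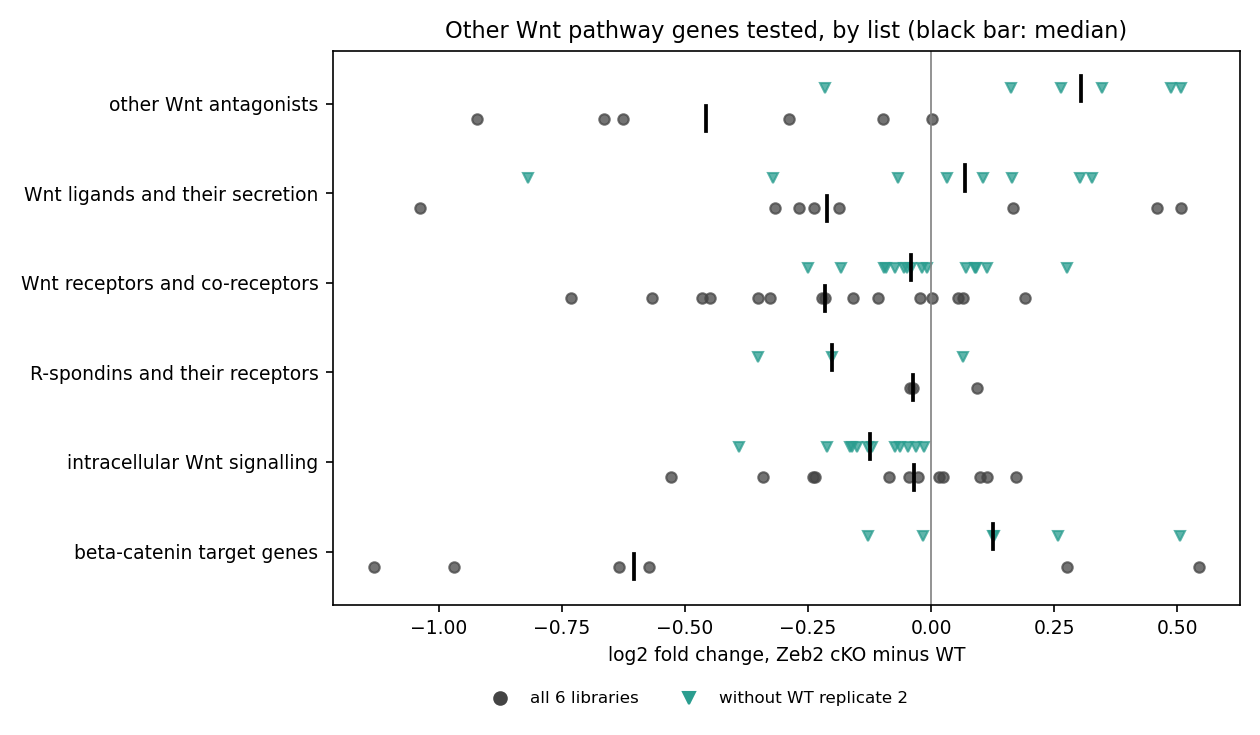
Log2 fold change (Zeb2 cKO minus WT) of the 50 other Wnt pathway genes tested, by list, with all 6 libraries (circles) and without WT replicate 2 (triangles), and the median of each list as a black bar. The medians of other antagonists and of target genes go from -0.46 and -0.60 to 0.31 and 0.13 without that library, and those of intracellular genes from -0.036 to -0.12.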

How the data were processed

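The data were 1 table of raw counts per gene from RNA-seq of heart tissue of 3 WT (Zeb2 fl/fl) and 3 Zeb2 cKO mice. The authors made stranded libraries after removing ribosomal RNA, read 75 bases from a single end, and aligned and counted the reads on Gencode M4 (GRCm38) with the STAR workflow. Its version, its strand option and its treatment of reads with several matches are not given in the sources used here. The deposited counts were used without change, and 0 columns were left unmatched to a sample. The submitters' processing notes name DESeq, which was not used here.

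With edgeR 4.0.16 (R 4.3.3), the counts were scaled by TMM, filtered with filterByExpr defaults and modeled on genotype (glmQLFit, glmQLFTest), with Benjamini-Hochberg adjustment over all 14746 genes kept. The prior count was 0.125 for log2 fold changes and 2 for the log2 CPM behind correlations. No permutation test is given for single genes, since the smallest exact two-sided p in this design is 0.1. Symbols, coordinates and exon lengths came from Gencode M21 (GRCm38) by gene identifier, promoters from RefSeq. Stretches shared with other genes (at least 75 bases, at least 95% identity) were found with BLAST 2.17.0 (Python 3.11.15). The steps were tested on simulated data. DESeq2 1.42.0 and 14 other settings were run as alternatives.

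The members and lists were chosen with earlier results of these data known. Genes were named by a rule: Zeb2, the 9 members, the 3 genes of smallest p and of highest CPM in each pathway list, and the 3 genes most correlated with each member. Not all are printed. Wisp1 was looked up as Ccn4.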

Additional observations from a re-analysis of the deposited data

How the results depend on the processing

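The groups of 3 mice, a single outlying WT library and counts of at most 111 for Shisa3 and 88 for Wif1 limit these values. In the 14 alternatives run with edgeR, genes with an adjusted p under 0.05 numbered 0 in either direction, and DESeq2 called 2 higher genes (Slc46a2 and Mrap2), neither of them a Wnt antagonist. The median log2 fold change of the members that passed the filter ran from -1.79 without WT replicate 1 to -0.039 without WT replicate 2, and from -1.50 to -1.33 under other normalizations, filters, tests and a prior count of 2.

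With each library left out in turn, the members without overlap numbered 1 to 2 (Frzb beside Shisa3 without WT replicate 1 or without Zeb2 cKO replicate 3), while the share of all genes tested rose to 23% and 22.6% under these omissions and to between 10.9% and 15.5% under the others, so nothing is read from the added member. The other Wnt pathway genes with an unadjusted p under 0.05 then numbered 0 to 3, beside 0.813% to 7.52% of all genes tested. They were Wnt2, Fzd1 and Nkd2 without WT replicate 1, Igfbp4 without WT replicate 2, Fzd8 without WT replicate 3, Wnt5b without Zeb2 cKO replicate 2, and Wnt2, Gsk3b and Axin2 without Zeb2 cKO replicate 3. Without a filter on low counts 1 pathway gene (Rspo2) passed that p, beside 2.49% of all genes. The cause of these shifts was not tested.

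Replicate numbers 1, 2 and 3 occur in both groups but belong to different mice, and deviations of libraries with the same number correlated at 0.088, -0.14 and -0.087, so the numbers were not taken as pairs. With the replicate block, 1 pathway gene (Wnt2) had an unadjusted p under 0.05, beside 1.68% of all genes tested, and the members' median was -0.89. The fibroblast sum without collagens was added after seeing the data: per fibroblast marker level, members without overlap then numbered 2 (Frzb and Dkk2, the latter at 1 to 9 counts) instead of 1 (Frzb), beside 1.41% instead of 2.73% of all genes tested.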
